A study of Mus musculus with 13 samples.

Results

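Osteoclasts are the multinucleated cells that resorb bone. Here 9 genes of their formation and function were followed in brain myeloid cells with and without Trem2. The 9 genes were found by symbol among the 52636 genes listed for each mouse, and all 9 were present. They are the fusion genes Dcstamp and Ocstamp, the receptors Tnfrsf11a, Oscar and Calcr, the transcription factor Nfatc1, and the resorption enzymes Acp5, Ctsk and Mmp9. The set was chosen by function and with the loss of Dcstamp in Trem2-deficient cells already known from these same counts. The genotype differences of its 9 genes are therefore given as a description, and no p-values are printed for them. Intervals and calls by cutoffs given for them below describe the fit and are no test. A filter on low counts left 5 of the 9 for the fit across genes.

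Osteoclasts form from cells of the monocyte and macrophage lineage when the cytokine RANKL binds its receptor RANK, the product of Tnfrsf11a. RANK works through TRAF6 and NF-κB, while receptors paired with the ITAM adaptors DAP12 (Tyrobp) and FcRγ (Fcer1g), among them TREM2 and OSCAR, raise calcium, and both arms meet at NFATc1. NFATc1 then switches on the genes for cell fusion (Dcstamp, Atp6v0d2) and bone breakdown (Acp5, Ctsk, Calcr, Oscar). Microglia belong to the same broad lineage and share RANK, DAP12 and CSF1R with osteoclast precursors.

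RNA was sequenced from 13 PS2APP mice of 14 to 15 months, 1 sample per mouse. All 13 came from breeders homozygous for the PS2APP transgene and heterozygous for the Trem2 null allele. The transgene drives amyloid plaques through mutant human presenilin 2 and APP. The 7 PS2APP;Trem2wt mice (5 females, 2 males) had intact Trem2, and the 6 PS2APP;Trem2ko mice (5 females, 1 male) were homozygous for the null allele Trem2tm1(KOMP)Vlcg, which removes the gene in every cell of the body. The null allele came from C57BL/6N and the transgene line from C57BL/6J. Cells positive for CD11b and CD45 and negative for Ly6g and Ccr2 were sorted from cortex and hippocampus, so neutrophils and Ccr2-bearing monocytes were gated out, and each sample holds bulk RNA of the sorted cells. Mice without the transgene were not analysed here, so the effect of plaques on these genes cannot be read from the comparison.

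Trem2 measured 1044 ± 141 nRPKM in PS2APP;Trem2wt mice (SD, n = 7) and 0.887 ± 0.734 in PS2APP;Trem2ko mice (SD, n = 6), where nRPKM is a read count per gene length and library, adjusted by a size factor. Libraries held between 26120961 and 120569609 counts, and 3 counts, the limit that a count of 0 allows, corresponded to 0.0249 to 0.115 CPM (counts scaled to a common library size). No 2 libraries of a genotype agreed within sampling noise. The sum of 7 microglial markers was 12995 to 15930 nRPKM in PS2APP;Trem2wt and 13282 to 15219 in PS2APP;Trem2ko mice. Sums of border macrophage markers (at most 32.7 against at most 47.9 nRPKM) and monocyte markers (at most 23.0 against at most 18.5 nRPKM) were small beside it. Astrocyte markers summed to at most 67.2 against at most 73.7 nRPKM, and neutrophil markers to at most 265 against at most 46.3 nRPKM. Endothelial markers summed to at most 16.4 against at most 10.3 nRPKM. In the test across genes described below, 1 of the 7 microglial markers was lower in PS2APP;Trem2ko mice and 0 were higher. Of the 4 endothelial markers, 1 was lower and 0 were higher. Across all tested genes 1.53% were lower and 0.503% higher, and a shift in the make-up of the sorted cells was not tested.

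The upstream sequence of 2 receptor genes is shown because their levels were far apart: Tnfrsf11a was strongly expressed, and Oscar, a known NFATc1 target, lay near the detection limit. Both are the 250 bases before a RefSeq start site on GRCm38.p6, read 5′ to 3′ on the gene's strand, at chr1:105780473-105780722 on the plus strand for Tnfrsf11a and chr7:3616158-3616407 on the minus strand for Oscar. Capitals mark the NFAT core GGAAA on either strand.
Tnfrsf11a: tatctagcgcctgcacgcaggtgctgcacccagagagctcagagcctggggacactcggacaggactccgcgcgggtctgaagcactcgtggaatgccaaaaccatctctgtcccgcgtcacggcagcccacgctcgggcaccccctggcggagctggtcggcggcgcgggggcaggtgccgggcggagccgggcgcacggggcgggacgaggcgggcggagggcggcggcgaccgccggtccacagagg
Oscar: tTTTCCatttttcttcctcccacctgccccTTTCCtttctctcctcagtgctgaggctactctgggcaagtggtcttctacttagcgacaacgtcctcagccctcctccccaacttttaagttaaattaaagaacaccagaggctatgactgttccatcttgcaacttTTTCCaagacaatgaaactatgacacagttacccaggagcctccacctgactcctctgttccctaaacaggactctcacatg

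The Tnfrsf11a window held 0 NFAT cores and was 73.6% G and C, whereas the Oscar window held 3 and was 47.2% G and C. Among all 32851 RefSeq promoters of the same length, 55.6% held GGAAA on either strand, so its presence is common. Neither window held the AP-1 motif TGANTCA, found in 6.75% of promoters. The PU.1 core GAGGAA, found in 23.3% of promoters and able to overlap GGAAA, occurred 0 times for Tnfrsf11a and 1 time for Oscar. The E-box CANNTG, found in 66.2% of promoters, occurred 2 times and 4 times. These are matches of letters and not measured binding sites. The Ctsk window held 0 NFAT and 2 PU.1 cores, and Calcr, the receptor with the lowest level, had 2 start sites with 0 and 1 NFAT cores. Acp5, also scarce, had 3 start sites with 1, 1 and 2 NFAT cores.

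Among the fusion genes, Dcstamp was present in every PS2APP;Trem2wt mouse and nearly absent from every PS2APP;Trem2ko mouse. Dcstamp (ENSMUSG00000022303, chr15:39745930-39760938, plus strand) encodes a membrane protein that osteoclast precursors and macrophages need to fuse. In the 7 PS2APP;Trem2wt mice its lowest, median and highest levels were 2.95, 5.29 and 9.84 nRPKM, from 253 to 2024 counts. In the 6 PS2APP;Trem2ko mice they were 0.00281, 0.130 and 0.206 nRPKM, from 1 to 60 counts. The groups did not overlap: every PS2APP;Trem2ko mouse lay far below the lowest PS2APP;Trem2wt mouse. Mean levels were 5.73 ± 2.32 (SD, n = 7) and 0.112 ± 0.0833 nRPKM (SD, n = 6), a ratio of 51.2. The log2 fold change was -5.69 with an SE of 0.55 and a 95% interval of -6.87 to -4.51. In bulk samples, fewer cells with a transcript and less of it per cell cannot be told apart.

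Of the 5 tested members, 1 (Dcstamp) was past the cutoffs of an adjusted p of 0.05 and a 2-fold change in the lower direction, and 0 in the higher. Across the 17086 tested genes, 0.691% were past the cutoffs in the lower and 0.0527% in the higher direction, and 1.18% had every PS2APP;Trem2ko mouse below every PS2APP;Trem2wt mouse. Because the contrast was known when the genes were picked, nothing is read from the comparison of these shares. 2 of the 6 PS2APP;Trem2ko mice had 3 or fewer Dcstamp counts. The log2 fold change stayed between -5.98 and -5.36 when each mouse was left out in turn.

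Ocstamp (ENSMUSG00000027670, chr2:165393760-165400405, minus strand), the related protein that acts with Dcstamp in fusion, did not pass the filter. Its counts summed to 65 over the 7 PS2APP;Trem2wt mice, with 41 in 1 mouse, and to 16 over the 6 PS2APP;Trem2ko mice. It had 0 counts in 1 PS2APP;Trem2wt and 4 PS2APP;Trem2ko mice, and its highest level in any mouse was 0.0693 nRPKM. The ranges overlapped, and a difference was not detectable at this depth. Ocstamp thus lay far below Dcstamp per gene length in PS2APP;Trem2wt mice, at a mean of 0.0310 nRPKM against 5.73 nRPKM.

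**Figure D1:**
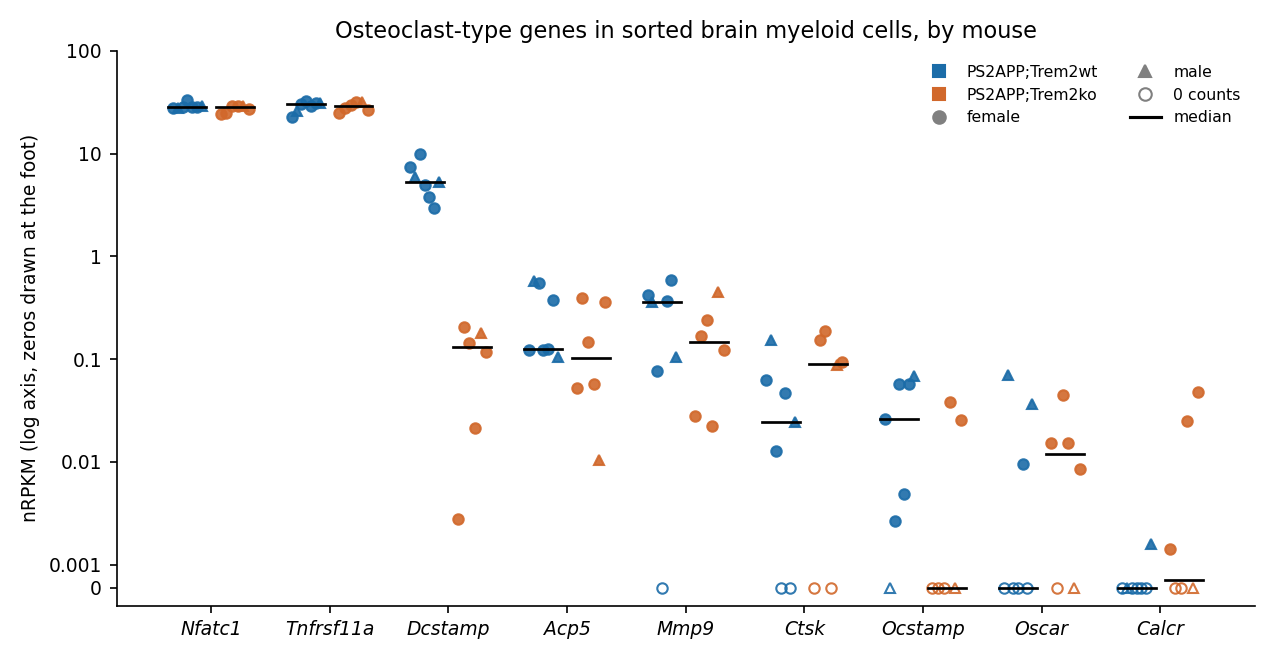
Level of each of the 9 genes in each mouse, in nRPKM on a log axis, with circles for females, triangles for males, open symbols at the foot for 0 counts and black bars for medians. Nfatc1 and Tnfrsf11a lie between 22.8 and 33.4 nRPKM in both genotypes, Dcstamp separates them, and the other 6 genes stay below 0.6 nRPKM.

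The receptor that starts the osteoclast programme was expressed at a like level in both genotypes. Tnfrsf11a (ENSMUSG00000026321, chr1:105780718-105847981, plus strand) had a lowest, median and highest level of 22.8, 30.3 and 32.4 nRPKM in PS2APP;Trem2wt mice. In PS2APP;Trem2ko mice the levels were 25.0, 28.8 and 31.5 nRPKM. The 2 ranges lay over each other. The means were 29.0 ± 3.46 (SD, n = 7) and 28.7 ± 2.67 nRPKM (SD, n = 6), and the log2 fold change of -0.02 had a 95% interval of -0.21 to 0.17.

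Oscar and Calcr were at or near the detection limit. Oscar (ENSMUSG00000054594, chr7:3609813-3616157, minus strand), the collagen receptor that pairs with FcRγ, gave 17 counts in all over the 7 PS2APP;Trem2wt mice and 13 over the 6 PS2APP;Trem2ko mice. Calcr (ENSMUSG00000023964, chr6:3685680-3764714, minus strand), the calcitonin receptor of mature osteoclasts, gave 1 count over the PS2APP;Trem2wt mice and 20 over the PS2APP;Trem2ko mice, 12 of them in 1 mouse. Both were excluded by the filter, and no difference can be read at such counts.

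Nfatc1 (ENSMUSG00000033016, chr18:80606205-80713071, minus strand), the master transcription factor of osteoclasts, stood at 27.7, 28.5 and 33.4 nRPKM (lowest, median, highest) in PS2APP;Trem2wt mice. In PS2APP;Trem2ko mice it stood at 24.3, 28.1 and 29.3 nRPKM. 3 of the 6 PS2APP;Trem2ko mice lay below all 7 PS2APP;Trem2wt mice, and the other 3 lay within their range. The means were 29.0 ± 1.99 (SD, n = 7) and 27.3 ± 2.24 nRPKM (SD, n = 6), with a log2 fold change of -0.09, an SE of 0.07 and a 95% interval of -0.24 to 0.06. These are transcript levels and do not report the calcium-driven entry of the protein into the nucleus.

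The resorption enzymes were scarce in both genotypes. Acp5 (ENSMUSG00000001348, chr9:22126727-22135711, minus strand), the tartrate-resistant acid phosphatase used to stain osteoclasts, was at 0.105, 0.125 and 0.577 nRPKM (lowest, median, highest) in PS2APP;Trem2wt mice. In PS2APP;Trem2ko mice it was at 0.0105, 0.102 and 0.396 nRPKM. The ranges overlapped, with 3 of 6 PS2APP;Trem2ko mice below all PS2APP;Trem2wt mice. The log2 fold change was -0.75 with a 95% interval of -2.25 to 0.74, which spans both directions. An exon of Acp5 overlaps 6530413G14Rik on the opposite strand, and whether reads were counted by strand is not given in the sources used here, so the 2 genes may share reads.

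Ctsk (ENSMUSG00000028111, chr3:95499256-95509362, plus strand), the collagen-cleaving cathepsin of the resorption pit, gave 0 to 9 counts per PS2APP;Trem2wt mouse and 0 to 22 per PS2APP;Trem2ko mouse, and did not pass the filter. Its median was 0.0245 nRPKM in PS2APP;Trem2wt and 0.0903 nRPKM in PS2APP;Trem2ko mice. The ranges overlapped.

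Mmp9 (ENSMUSG00000017737, chr2:164940780-164955850, plus strand), a gelatinase of osteoclasts and also of neutrophil granules, was at 0, 0.360 and 0.592 nRPKM (lowest, median, highest) in PS2APP;Trem2wt mice and at 0.0222, 0.145 and 0.451 nRPKM in PS2APP;Trem2ko mice. The ranges overlapped, and the log2 fold change of -0.65 had an SE of 0.78. The sum of 8 neutrophil markers was 14.9 to 265 nRPKM in PS2APP;Trem2wt and 0.148 to 46.3 nRPKM in PS2APP;Trem2ko mice, although the sort excluded Ly6g-positive cells and Ly6g, Retnlg and Mpo each averaged under 1 nRPKM. The male PS2APP;Trem2ko mouse had both the highest Mmp9 and the highest neutrophil sum of its group. In PS2APP;Trem2wt mice, the mouse with 0 Mmp9 had the lowest sum (14.9 nRPKM). The mice with Mmp9 of 0.592 and 0.425 nRPKM had sums of 102 and 75.0 nRPKM. But the highest sum (265 nRPKM) stood beside a middling Mmp9 of 0.360 nRPKM. In PS2APP;Trem2ko mice the lowest Mmp9, 0.0222 nRPKM, stood beside a sum of 37.0 nRPKM. The part of neutrophil RNA in the Mmp9 level was not tested.

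**Figure D2:**
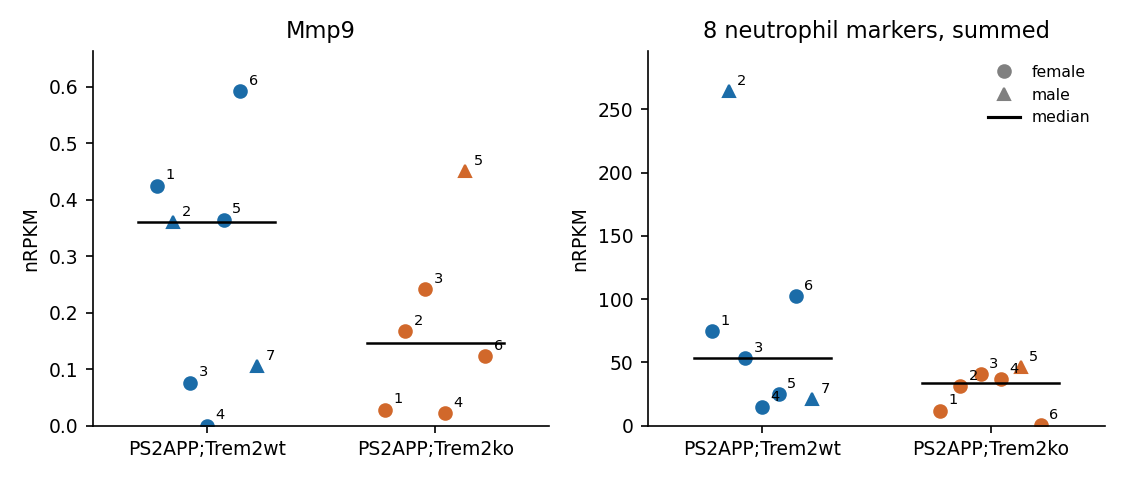
Mmp9 (left) and the sum of 8 neutrophil markers (right) in nRPKM for each mouse, with replicate numbers, black bars for medians, circles for females and triangles for males. The genotypes overlap in both panels, and the highest neutrophil sum, 265 nRPKM, is in a male PS2APP;Trem2wt mouse.

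The place of Dcstamp in the order of the 9 levels differed between the genotypes. In PS2APP;Trem2wt mice Nfatc1 and Tnfrsf11a came first with overlapping ranges, Dcstamp followed with a range that overlapped neither neighbour, and Acp5, Mmp9, Ctsk, Ocstamp, Oscar and Calcr came after it, each overlapping the next. In PS2APP;Trem2ko mice Tnfrsf11a and Nfatc1 again led, but Dcstamp lay among the scarce genes and overlapped Acp5 above and Ctsk below. Among PS2APP;Trem2wt mice Dcstamp also varied more than the genes above it, with a coefficient of variation of 40.4% against 11.9% for Tnfrsf11a and 6.86% for Nfatc1.

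To place the 9 genes in the pathway around them, 103 other genes of osteoclast formation and function were sorted by role. Of these, 94 passed the filter. In edgeR's quasi-likelihood test with Benjamini-Hochberg adjustment over all tested genes, 4 were lower in PS2APP;Trem2ko mice (Atp6v0d2, Spp1, Bhlhe40 and Tyrobp), 2 were higher (Chuk and Pirb), and 88 did not pass. Across all tested genes 1.53% were lower and 0.503% higher by the same test. Because the lists were drawn up with earlier results of these data known, nothing is read from that comparison either. For the same reason, the adjusted p-values given below for genes of these lists describe the fit and are not independent support. The median log2 fold change of the 94 was -0.03, beside 0.0039 for all tested genes.

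In the arm from RANK to NF-κB, 1 of 14 tested genes rose and 0 fell. Chuk, which encodes the kinase IKKα, was at 15.0 to 21.1 nRPKM in PS2APP;Trem2wt and 23.0 to 24.9 nRPKM in PS2APP;Trem2ko mice, with no overlap. Of the 17086 tested genes, 75 had every PS2APP;Trem2ko mouse above every PS2APP;Trem2wt mouse. Chuk rose by 0.38 on the log2 scale with an SE of 0.08 (edgeR adjusted p = 0.0163). RANKL itself (Tnfsf11) averaged 0.00557 nRPKM in PS2APP;Trem2wt and 0.00165 nRPKM in PS2APP;Trem2ko mice, and its decoy receptor osteoprotegerin (Tnfrsf11b) 0.113 and 0.0103 nRPKM, both too low to test. Traf6, the adaptor that RANK recruits, did not pass, with a log2 fold change of 0.02.

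Among the 13 tested genes of the list for costimulatory receptors and ITAM signalling, 1 fell and 1 rose. That list also held the inhibitory receptor Pirb and the growth factor receptor Csf1r. Tyrobp, the DAP12 adaptor that carries the signal of TREM2, was at 1542 to 2197 nRPKM in PS2APP;Trem2wt and 1124 to 1635 nRPKM in PS2APP;Trem2ko mice, and 5 of 6 PS2APP;Trem2ko mice lay below all PS2APP;Trem2wt mice. It fell by 0.48 on the log2 scale (SE 0.10, adjusted p = 0.0202), but the call was lost without PS2APP;Trem2ko replicate 4 (log2 fold change -0.44, adjusted p = 0.0507), without replicate 6 (-0.46, adjusted p = 0.0534) and in females alone (-0.46, adjusted p = 0.0709), at folds close to that over all mice. Pirb, an inhibitory immunoglobulin-like receptor, rose from 4.51 ± 0.745 to 7.22 ± 1.16 nRPKM (SD, n = 7 and 6), with a log2 fold change of 0.68 (adjusted p = 0.00891). Pirb has near-identical Pira relatives, between which uniquely aligned reads can be hard to place. Syk, Btk, Plcg2, Fcer1g and Csf1r did not pass, with log2 fold changes of 0.06, 0.19, -0.05, -0.09 and -0.18.

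None of the 11 calcium and calcineurin genes passed. The smallest unadjusted p among them was that of Nfatc3, a relative of Nfatc1, at 8.88 ± 0.863 and 7.69 ± 0.726 nRPKM (SD, n = 7 and 6), with a log2 fold change of -0.21 and an edgeR adjusted p of 0.221.

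Of the 14 tested transcription factors that promote osteoclasts, Bhlhe40 fell. Bhlhe40, a basic helix-loop-helix repressor, was at 8.16, 12.3 and 23.4 nRPKM (lowest, median, highest) in PS2APP;Trem2wt mice and at 1.06, 2.10 and 3.91 nRPKM in PS2APP;Trem2ko mice. The groups did not overlap. It fell by 2.58 on the log2 scale with an SE of 0.30 (edgeR adjusted p = 0.00014). Spi1 (PU.1), Mitf and Fos did not pass, with log2 fold changes of -0.24, 0.32 and 1.54, and Fos ranged widely, from 0.795 to 27.1 nRPKM among PS2APP;Trem2ko mice alone. None of the 6 tested factors that restrain osteoclasts passed, the nearest being Id2 with a log2 fold change of 0.30 and an edgeR adjusted p of 0.379.

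Of 14 tested fusion and adhesion genes, Atp6v0d2 fell. It encodes a proton pump subunit that osteoclasts use in place of the common one and that takes part in their fusion. Its lowest, median and highest levels were 3.27, 5.28 and 10.2 nRPKM in PS2APP;Trem2wt mice and 0.00437, 0.114 and 0.478 nRPKM in PS2APP;Trem2ko mice. All 6 PS2APP;Trem2ko mice lay below all 7 PS2APP;Trem2wt mice. It fell by 4.83 on the log2 scale with an SE of 0.63 (edgeR adjusted p = 0.000478). Its counts ran from 318 to 2661 in PS2APP;Trem2wt mice and from 1 to 202 in PS2APP;Trem2ko mice. The 13 others ran from -0.70 (Cd44) to 0.58 (Adam8) and did not pass.

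The list for acid secretion and matrix breakdown also held the matrix protein gene Spp1, and of its 22 tested genes only Spp1 fell. The other 21 did not pass. Spp1 encodes osteopontin, the matrix protein by which osteoclasts hold to bone and one that activated microglia also secrete. It was at 132, 272 and 603 nRPKM (lowest, median, highest) in PS2APP;Trem2wt mice and at 5.07, 9.80 and 25.0 nRPKM in PS2APP;Trem2ko mice, again with no overlap. Spp1 fell by 4.78 on the log2 scale with an SE of 0.49 (edgeR adjusted p = 6.74e-05). Among the acid genes of this list, the pump subunit Tcirg1, the chloride exchanger Clcn7 and the carbonic anhydrase Car2 did not pass. Their log2 fold changes were 0.32, -0.07 and -0.01. The pump subunit Atp6v0d2, which fell, was listed with the fusion genes above.

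**Figure D3:**
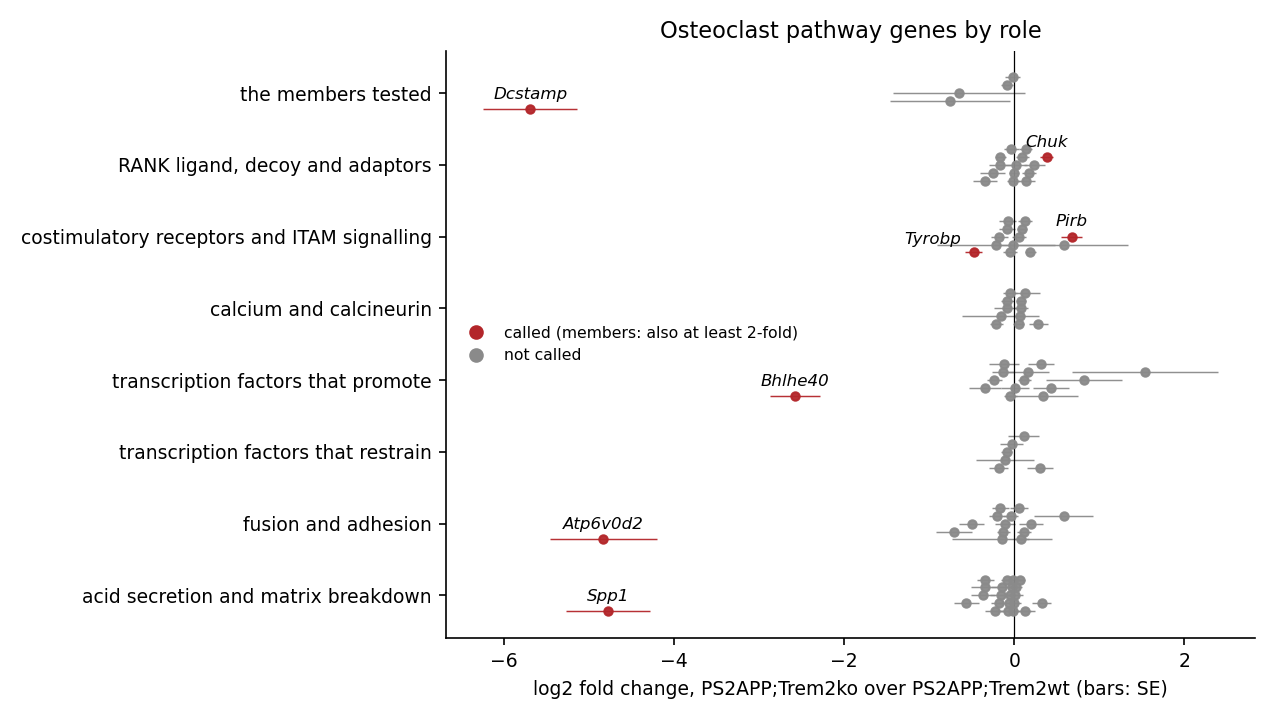
Log2 fold change of PS2APP;Trem2ko over PS2APP;Trem2wt for the 5 tested members and the 94 tested pathway genes, by role, with bars for the SE. Most points lie near 0, while Dcstamp (-5.69), Atp6v0d2 (-4.83), Spp1 (-4.78) and Bhlhe40 (-2.58) stand far to the left, and 88 pathway genes are grey because they did not pass the test.

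Sex and the spread among mice of 1 genotype were measures that the choice of genes had not used. In a fit with genotype and sex over 10 females and 3 males, 0 of the 5 tested members differed by sex in edgeR's test, with adjusted p-values from 0.879 to 0.971, and 0.0234% of all tested genes differed. At an unadjusted p under 0.05 the counts were 0 of the 5 members and 1187 of the 17086 tested genes. The male minus female log2 difference of Dcstamp was 0.27 with an SE of 0.54. Among PS2APP;Trem2wt mice alone, the 2 males lay at 5.29 and 5.86 nRPKM, inside the female range of 2.95 to 9.84 nRPKM.

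Within the 7 PS2APP;Trem2wt mice, none of the 4 other tested members had a relation with Dcstamp that passed the test, and 7 mice leave such a test little precision. On log2(nRPKM + 0.1), Pearson's r with Dcstamp was -0.40 for Tnfrsf11a, -0.20 for Nfatc1, 0.23 for Acp5 and -0.38 for Mmp9. Adjusted over these 4 relations, the two-sided exact permutation p over 5040 pairings was 0.615 for each, and the unadjusted values were 0.369, 0.610, 0.615 and 0.396. Spearman's rho was -0.54, -0.54, 0.11 and -0.36, with exact permutation p-values of 0.236, 0.236, 0.840 and 0.444 and adjusted values of 0.471, 0.471, 0.840 and 0.593. Leaving out the 2 mice farthest from the median Dcstamp gave r of -0.72, -0.34, 0.20 and 0.25, so the sign for Mmp9 rested on those mice.

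The 6 pathway genes that passed the genotype test were compared with Dcstamp in the same way, a family added after the data were seen. Bhlhe40 had r = 0.80 (exact permutation p = 0.0335, adjusted p = 0.101) and rho = 0.71 (exact permutation p = 0.0881, adjusted p = 0.264). Atp6v0d2 had r = 0.78 (exact permutation p = 0.0331, adjusted p = 0.101) and rho = 0.75 (exact permutation p = 0.0663, adjusted p = 0.264). Neither passed adjustment over the 6 relations, and without the 2 farthest mice r was 0.04 and 0.17, so both rested on those mice. Spp1 had r = 0.65, Tyrobp 0.40, Chuk 0.13 and Pirb -0.34, with exact permutation p-values of 0.113, 0.382, 0.776 and 0.448 and adjusted values of 0.225, 0.538, 0.776 and 0.538. Their rho values were 0.61, 0.32, 0.25 and -0.39, with exact permutation p-values of 0.167, 0.498, 0.595 and 0.396 and adjusted values of 0.333, 0.595, 0.595 and 0.593. Without PS2APP;Trem2wt replicate 3, the mouse with the most Dcstamp, r for Chuk was 0.996 with an exact permutation p adjusted to 0.00833, so that relation turns on 1 mouse.

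**Figure D4:**
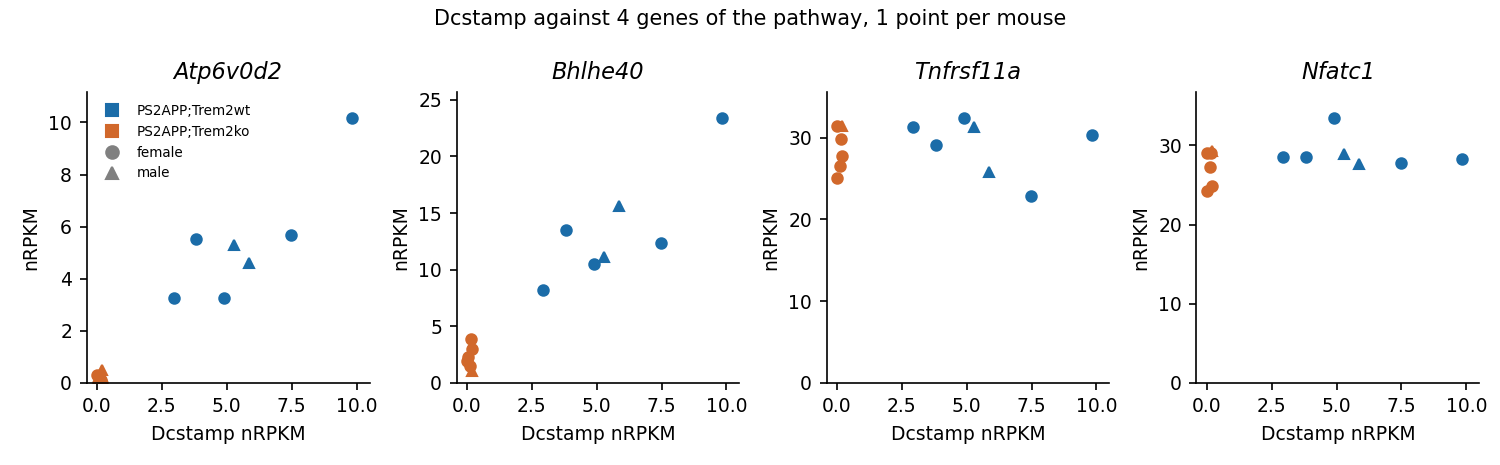
Dcstamp (horizontal axis) against Atp6v0d2, Bhlhe40, Tnfrsf11a and Nfatc1 (vertical axes), all in nRPKM, with 1 point per mouse, circles for females and triangles for males. Atp6v0d2 and Bhlhe40 are near the origin in PS2APP;Trem2ko mice, while Tnfrsf11a and Nfatc1 keep a height between 22.8 and 33.4 nRPKM at any Dcstamp level.

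The 5 genes whose levels were most like Dcstamp over the 7 PS2APP;Trem2wt mice were Apbb2 (r = 0.99), Zfp367 (0.98), Chst11 (0.95), Arap2 (0.95) and Gm11646 (0.95), among 11027 genes averaging at least 1 nRPKM. Of those genes, 21 had r above 0.9 and 24 had r below -0.9, so correlations of this size occur in both directions with 7 mice. Apbb2, an adaptor that binds the tail of APP, was at 13.5 ± 1.77 nRPKM in PS2APP;Trem2wt and 10.2 ± 1.03 nRPKM in PS2APP;Trem2ko mice (SD, n = 7 and 6; log2 fold change -0.40, edgeR adjusted p = 0.0306). Arap2, which inactivates ARF GTPases, was at 3.24 ± 0.686 and 1.87 ± 0.446 nRPKM (SD, n = 7 and 6; log2 fold change -0.79, edgeR adjusted p = 0.0216). Zfp367, Chst11 and Gm11646 did not pass, with log2 fold changes of 0.05, -0.30 and -0.39.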

How the data were processed

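RNA-Seq libraries (SMART-seq v4, single-end reads) of 13 mice were used as deposited. The authors discarded adapter, low-quality and rRNA reads, aligned the rest to GRCm38 with GSNAP (version not given in the sources used here) and deposited the count of uniquely aligned reads per gene, not normalized. They also deposited size-factor-adjusted RPKM values (nRPKM), which were used for levels per mouse. Names of 52403 of 52636 genes and their coordinates came from the GRCm38 annotation. Promoters came from RefSeq (GRCm38.p6), which matched Tnfrsf11a, Oscar, Calcr, Acp5 and Ctsk.

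The main test was edgeR 4.0.16 (R 4.3.3). After filterByExpr, which kept 17086 genes, counts were scaled by TMM and tested with glmQLFit and glmQLFTest by genotype, with no covariate. The common biological coefficient of variation was 0.299. The SE is the log2 fold change divided by the square root of F. Limits of 3 counts cover counting error only. Each sample is 1 mouse, and genotype and sex came from the labels. Permutation tests used all pairings. Tests across genes were tried on simulated data.

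Members and lists were chosen with earlier results of these data known. Named genes were the 9 members, in each list every gene with an adjusted p of 0.05 or less (at most 6 per direction) or else the gene with the smallest p, and the 5 genes most correlated with Dcstamp. Other pathway genes named were picked after their values were seen. Results were recomputed with DESeq2 1.42.0, with voom weights in limma 3.58.1, with limma on log2(nRPKM + 0.1) or log2(nRPKM + 1), with RLE factors, without the filter or with one of 10 counts in 6 mice, with a term for sex, in females alone, and without each mouse in turn.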

Additional observations from a re-analysis of the deposited data

Results flagged for a closer look

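Genes were checked within a genotype, though not all of them in both. The check looked for a mouse whose gap to its nearest neighbour, as a share of the whole range, was above Dixon's 95% critical value. This marked 1 mouse in 6 of 33 such sets of values. Chance would give 1.65 (1 in 20) if the sets were independent and their values normally distributed. But all of them reuse the same 13 mice, and some hold values near 0. The size of the gap is relative to the range, so it can be small in absolute terms. Atp6v0d2 was at 10.2 nRPKM in PS2APP;Trem2wt replicate 3, against 3.27 to 5.69 nRPKM in the other mice, and the same mouse had the highest Dcstamp. Nfatc1 was at 33.4 nRPKM in PS2APP;Trem2wt replicate 4, against 27.7 to 28.9 nRPKM. In PS2APP;Trem2ko replicate 1, Spp1 was at 25.0 nRPKM, against 5.07 to 11.9 nRPKM, and Chuk at 24.9 nRPKM, against 23.0 to 23.7 nRPKM. Ctsk was at 0.154 nRPKM in PS2APP;Trem2wt replicate 2, which rests on 9 counts, and Oscar at 0.0452 nRPKM in PS2APP;Trem2ko replicate 3, which rests on 5 counts.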

How the results depend on the processing

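The count of members past the cutoffs, 1 lower (Dcstamp) and 0 higher, held in all 22 alternatives. The set was picked with this difference known from the same counts, so this describes the settings and is no further support. The log2 fold change of Dcstamp ran from -6.76 with voom+limma to -2.53 on log2(nRPKM + 1), where the pseudocount compresses low values by construction. DESeq2 called 8 pathway genes lower instead of 4, adding Cd44, Itgav, Cbl and Mmp14. Leaving out each mouse gave 3 to 5 lower and 2 to 3 higher pathway genes. Chuk, Pirb, Bhlhe40, Atp6v0d2 and Spp1 kept their calls without any 1 mouse, with edgeR, voom+limma, DESeq2 or limma on nRPKM. Tyrobp lost its call in 3 of 22 alternatives, as given above, and the cause was not tested. The pathway lists were also drawn up with earlier results of these data known, so calls kept here describe the settings and are no further support. Acp5 and Mmp9 passed the cutoffs under none of the 22 (DESeq2 gave Acp5 no adjusted p), and their log2 fold changes moved between -1.23 and -0.49 and between -1.24 and -0.35 as mice were left out, and between -1.53 and -0.13 and between -1.33 and -0.11 under the other settings. No member differed by sex or correlated with Dcstamp under any alternative run. Among the 6 pathway genes, 1 correlated with Dcstamp without PS2APP;Trem2wt replicate 3 (Chuk). No paired analysis was possible because the labels do not say which mice were processed together, although the study generally handled 1 mouse of each genotype side by side up to sorting. At 3 counts or fewer in most mice, Oscar, Calcr and Ocstamp are limited by depth.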
